A study of Mus musculus with 6 samples.

Results

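The genes described here serve protein folding in the endoplasmic reticulum (ER), the degradation of misfolded ER proteins, and the stress responses that watch over both. They were chosen by name, from what the proteins do: 9 lumenal chaperones and co-chaperones, 6 lectin chaperones and disulfide isomerases, 3 subunits of the translocation machinery, 6 components of ER-associated degradation (ERAD), 6 sensors and transcription factors, 4 targets of ATF4 and 4 enzymes of serine and one-carbon metabolism. All 38 were found among the 16516 genes of the expression table. Of these, 36 passed the filter on low counts and were among the 13151 genes tested, while Trib3 and Chac1 were too low to be tested.

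Proteins that are secreted or sit in membranes fold in the ER, where chaperones such as BiP (Hspa5) and the calnexin cycle hold unfinished chains and where failed chains are sent back to the cytosol for the proteasome. When unfolded proteins accumulate, the sensors IRE1, PERK and ATF6 start the unfolded protein response: IRE1 splices Xbp1 mRNA, ATF6 is cleaved into a transcription factor, and PERK phosphorylates the initiation factor eIF2α. Other kinases phosphorylate eIF2α in amino acid shortage and viral infection. In each case this starts the integrated stress response, in which general translation falls while ATF4 is made and switches on genes of amino acid supply. Microglia and other macrophages use the same machinery when they secrete cytokines and display receptors.

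CD11b+ cells were isolated by magnetic-activated cell sorting (MACS) from the cortex of wild-type male C57BL6/J mice aged 8 to 10 weeks and profiled by RNA-seq. The NS group had received 4 daily intraperitoneal injections of normal saline, and the 4LPS group 4 daily injections of lipopolysaccharide (LPS) of Escherichia coli 055:B5 at 500 µg/kg, and both groups were taken on day 7 after the first injection (D7). There were 3 samples in each group, each holding the cells of 2 pooled mice. Such a sample is a mixture of whatever the CD11b beads retain, so for every gene below fewer cells of a type and less RNA per cell cannot be told apart.

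Levels are given as CPM, counts scaled to a common library total and for library composition, and as FPKM, fragments scaled for gene length and library total, where genes are compared with each other. Total counts were 15158342 to 15746606 in NS and 15164123 to 15462396 in 4LPS. The labels name the cells microglia, and microglial markers were high in every sample, their 12 genes summing to 50288 ± 1447 CPM in NS and 48895 ± 310.1 CPM in 4LPS (mean ± SD, n = 3). Of the 12, 4 lay above NS in all samples of 4LPS and 7 below, with a median log2 fold change of -0.14. By edgeR's test, described below, 1 was higher (Aif1) and 1 lower (P2ry12, -0.53), 9 had an unadjusted p under 0.05, and DESeq2 called 3 higher and 7 lower. Markers of other cells differed between the groups: 14 of 15 natural killer (NK) and T cell genes tested were higher in 4LPS (16.4 ± 4.41 against 165 ± 9.30 CPM in sum), 8 of 13 astrocyte genes were lower (415 to 442 CPM in NS and 297 to 319 CPM in 4LPS) and 5 of 13 endothelial genes were lower (568 to 1106 and 329 to 625 CPM). Choroid plexus markers varied most, with sums of 10319, 8628 and 1085 CPM in NS and of 3423, 18.0 and 889 CPM in 4LPS. Of 9 dendritic cell genes 5 were higher (34.2 ± 5.29 against 51.1 ± 6.31 CPM in sum), of 10 border macrophage genes 2 (1565 ± 11.4 against 1921 ± 213 CPM) and of 9 monocyte genes 1. DESeq2 called 4 of the 9 monocyte genes higher, 4 had an unadjusted p under 0.05 by edgeR, and 8 had a log2 fold change above 0 (median 0.90). Their sums were 139 to 310 CPM in NS and 180 to 275 CPM in 4LPS. The edgeR counts of markers are to be read against all genes tested, of which 9.95% were higher, 6.43% lower and 33.7% at an unadjusted p under 0.05. None of 12 neutrophil genes passed by edgeR, 4 had an unadjusted p under 0.05, DESeq2 called 1 higher, and their sums were 202 to 786 CPM in NS and 521 to 1235 CPM in 4LPS. In B and plasma cells, the latter with a greatly enlarged ER, 13 marker genes were in the table and summed to 44.4 ± 2.90 CPM in NS and 79.6 ± 2.68 CPM in 4LPS. Only 4 of these were tested, of which Cd22 was higher (13.2 to 16.0 against 46.7 to 51.6 CPM) and Tnfrsf17 lower (9.82 to 11.3 against 6.58 to 7.00 CPM). The defining markers Cd79a, Ms4a1, Jchain and Mzb1 reached no more than 0.949 CPM in any sample. Cd22 alone made up most of the difference between the group sums, which therefore do not measure the share of B and plasma cells. The part of any of these cells in the results below was not tested.

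Short sequence elements near the start site are known to tie many of these genes to the unfolded protein response, and they are shown here because they divide the members into those that carry such an element and those that do not. RefSeq promoters of the GRCm38.p6 build, reaching from 250 bases before to 50 bases after the start site, were at hand for 33 of the 38 members (35 promoters) and searched on both strands for 4 motifs. The ER stress element (ERSE), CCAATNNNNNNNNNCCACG, was present in 8 of the 35 member promoters and in 39 of all 32851 promoters (0.119%). The element ERSE-II, ATTGGNCCACG, was found in 2 member promoters, those of Dnajb11 (from 8 to 18 after the start, counting the start base as 1) and Herpud1, and in 0.0365% of all. The C/EBP-ATF response element (CARE), TTGCATCA, was found in Herpud1 and Chac1 and in 0.895% of all promoters, and the unfolded protein response element TGACGTGG in no member promoter and in 0.676% of all. No motif match overlapped another in the member promoters. A match describes these letters only, and no promoter was at hand for Atf6, Manf, Sec61a1, Hyou1 and Derl1.

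The 250 bases before the start site of Herpud1 (chr8:94386179-94386428, plus strand) are given first, since Herpud1 is the member that rose most and the one that carries CARE (from -112 to -105) and ERSE-II (from -52 to -42), both in capitals. The same stretch of Hspa5 (chr2:34771840-34772089, plus strand) follows as the gene most often read as a gauge of ER stress, with its ERSE match in capitals (from -65 to -47). The other lines give the remaining ERSE matches and the CARE match of Chac1 with 20 bases on each side, read along the strand of the gene. Their positions are chr10:86705618-86705676 and chr10:86705513-86705571 for the upstream and downstream match of Hsp90b1 (minus strand), chr14:118937807-118937865 for Dnajc3 (plus), chr15:88819500-88819558 for Creld2 (plus), chr8:84847055-84847113 for Calr (minus), chr11:50325780-50325838 for Canx (minus), chr12:17266471-17266529 for Pdia6 (plus), chr19:6046512-6046570 for Syvn1 (plus) and chr2:119351029-119351076 for Chac1 (plus). In Creld2, Calr and the downstream match of Hsp90b1 the element runs against the gene, so that the capitals show its reverse complement.
Herpud1, CARE and ERSE-II: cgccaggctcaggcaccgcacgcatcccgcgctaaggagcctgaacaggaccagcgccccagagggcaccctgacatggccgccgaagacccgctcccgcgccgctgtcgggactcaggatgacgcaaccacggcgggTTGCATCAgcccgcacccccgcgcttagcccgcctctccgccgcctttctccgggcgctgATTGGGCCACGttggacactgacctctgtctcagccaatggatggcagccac
Hspa5, ERSE: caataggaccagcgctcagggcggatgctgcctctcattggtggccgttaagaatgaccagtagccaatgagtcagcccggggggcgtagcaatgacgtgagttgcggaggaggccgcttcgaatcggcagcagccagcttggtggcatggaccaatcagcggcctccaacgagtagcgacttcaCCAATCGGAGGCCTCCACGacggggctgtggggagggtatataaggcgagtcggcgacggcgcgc
Hsp90b1, upstream ERSE: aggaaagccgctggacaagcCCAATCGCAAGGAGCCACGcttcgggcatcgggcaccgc
Hsp90b1, downstream ERSE: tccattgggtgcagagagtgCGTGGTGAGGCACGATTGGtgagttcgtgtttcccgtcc
Dnajc3, ERSE: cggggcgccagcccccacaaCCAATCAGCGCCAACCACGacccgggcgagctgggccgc
Creld2, ERSE: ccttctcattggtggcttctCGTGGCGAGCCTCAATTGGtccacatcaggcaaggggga
Calr, ERSE: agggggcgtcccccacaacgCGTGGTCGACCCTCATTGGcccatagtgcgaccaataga
Canx, ERSE: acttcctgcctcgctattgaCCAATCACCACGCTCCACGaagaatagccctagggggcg
Pdia6, ERSE: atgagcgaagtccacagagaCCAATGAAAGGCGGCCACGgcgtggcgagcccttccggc
Syvn1, ERSE: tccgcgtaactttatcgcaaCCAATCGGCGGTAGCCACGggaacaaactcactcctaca
Chac1, CARE: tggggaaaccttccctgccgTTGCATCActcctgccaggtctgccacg

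At D7 the ER and stress response genes differed little between NS and 4LPS cells. By edgeR's quasi-likelihood test with Benjamini-Hochberg adjustment over all 13151 genes, Herpud1 and Shmt2 rose, Atf4, Xbp1 and Ssr1 fell, and the other 31 of 36 members did not pass an adjusted p of 0.05. The 5 members that passed stand against 16.4% of all genes tested, the 2 that rose against 9.95% and the 3 that fell against 6.43%, so the share of members called was near that of the table as a whole. Of the 36 members tested, none differed by more than 1.35-fold in the fit, the value of Mthfd2, which did not pass. At an unadjusted p under 0.05 the count was 15 of 36, against 33.7% of all genes.

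The median log2 fold change of the 36 members was 0.07, with 25 above 0 and 11 below, against a median of -0.02 over all genes tested. Without a composition factor the members' median was -0.03 against -0.11 over all genes, and on log2(FPKM + 1) it was -0.02 against -0.08. The sign of the members' median thus depended on the scaling, while it stood above the median of all genes under each of these 3 scalings. The split of calls over all genes moved as well, from 1308 higher and 845 lower to 906 and 1711 without a composition factor, 823 and 1486 on log2(FPKM + 1) and 2131 and 775 with a correction for gene length. The 3 samples of 4LPS lay entirely above those of NS for 14 members (19.9% of all genes tested did so) and entirely below for 6 (17.5% of all), while the groups overlapped for 16. The 20 members without overlap stand against 37.4% of all genes.

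These genes were abundant and tightly measured, which bounds the size of the changes under the scaling used. The median level in NS was 144 CPM for the members and 23.8 CPM for all genes tested, and the median standard error (SE) of the log2 fold change was 0.06 and 0.10. The coefficient of variation between NS samples had a median of 3.98% for members and 8.44% for all genes, and between 4LPS samples 4.18% and 7.30%. The 95% interval of the fold change lay within 1.5-fold of no change for 34 of the 36 members, whereas this held for 62.3% of all genes tested. The 2 exceptions were Asns, at a log2 interval of -0.82 to 1.00, and Mthfd2, at -0.76 to -0.10. The intervals do not include differences between ways of processing. Atf6, for example, had an interval of -0.15 to 0.08 but a value of 0.151 with a correction for gene length.

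**Figure D1:**
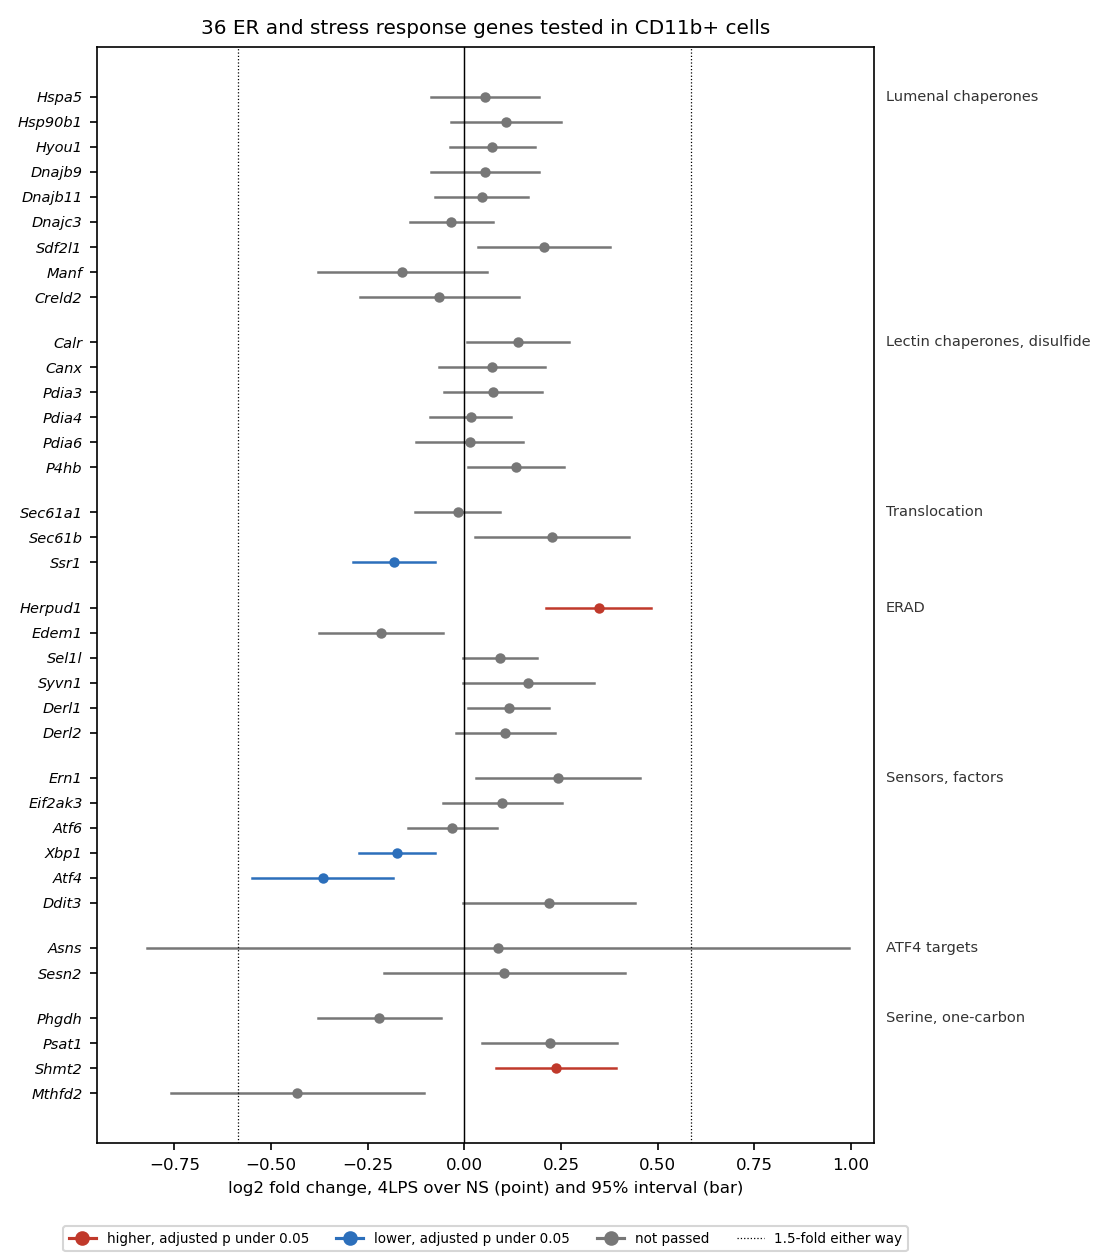
The log2 fold change of 4LPS over NS (point) is plotted with its 95% interval (bar) for the 36 members tested, grouped by role, with red for higher, blue for lower and grey for not passed at an adjusted p of 0.05. Herpud1 and Shmt2 are red, Atf4, Xbp1 and Ssr1 are blue, and 34 of the 36 intervals lie between the dotted lines at 1.5-fold.

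None of the 9 lumenal chaperones and co-chaperones passed (16.4% of all genes tested did), and 1 of them, Sdf2l1, had an unadjusted p under 0.05 (33.7% of all). DESeq2 and limma-voom called none either. Hspa5 encodes BiP, the ER member of the Hsp70 family, and lies on chromosome 2 (chr2:34661982-34668880 in GRCm39, plus strand, 8 exons). Its level was 1010.0, 965 and 948 CPM in NS and 959.7, 1067 and 1006 CPM in 4LPS. The 2 groups overlapped, and the log2 fold change was 0.05 with an SE of 0.06 and a 95% interval of -0.09 to 0.19 (edgeR, adjusted p = 0.574). Hspa5 shares exon bases with Rabepk on the opposite strand.

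Hsp90b1, the ER paralog of Hsp90 also called GRP94, a chaperone of Toll-like receptors and integrins, was the most abundant of the 9 with 1355, 1349.5 and 1474 CPM in NS and 1459.6, 1534 and 1509 CPM in 4LPS. The lowest 4LPS sample stood just under the highest NS sample, and the log2 fold change of 0.11 ± 0.06 (SE) did not pass (edgeR, adjusted p = 0.248). Sdf2l1, a BiP cofactor that keeps misfolded chains soluble, had 73.0, 75.6 and 63.7 CPM in NS and 81.4, 78.6 and 84.8 CPM in 4LPS. Its groups were apart, 4LPS being 1.15-fold higher, but the adjusted p was 0.0956 by edgeR. Hyou1, a nucleotide exchange factor for BiP, was also apart by a small margin (199 to 212 against 213 to 226 CPM, log2 fold change 0.07).

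The BiP co-chaperones Dnajb9, Dnajb11 and Dnajc3 and the secreted stress proteins Manf and Creld2 had overlapping groups, with log2 fold changes between -0.16 (Manf) and 0.05 (Dnajb9). In Manf, whose product leaves cells under ER stress and acts as a trophic factor, the NS samples spread from 112 to 147 CPM and enclosed all but the lowest 4LPS sample, at 111 CPM. Without NS replicate 3, the lowest of its group, Manf passed as lower (log2 fold change -0.26, edgeR, adjusted p = 0.0318), and without NS replicate 1 the value was -0.06 (0.651). The signs of Hspa5, Hyou1, Dnajb9 and Dnajb11 turned negative without a composition factor and on log2 FPKM, with values between -0.05 and -0.02.

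Among the lectin chaperones and disulfide isomerases none of 6 passed by edgeR (16.4% of all genes tested did) or limma-voom. An unadjusted p under 0.05 was reached by 2 (33.7% of all), and DESeq2 called Calr (adjusted p = 0.0303). Calreticulin (Calr) binds glycoproteins and calcium in the lumen and is among the chaperones of MHC class I assembly. It had 1299, 1270.4 and 1203 CPM in NS and 1358, 1382 and 1413 CPM in 4LPS. The samples of 4LPS were all higher, by 1.10-fold in the fit (log2 0.14 ± 0.06, edgeR, adjusted p = 0.131). P4hb, the classical protein disulfide isomerase, had 484, 495 and 510.1 CPM in NS and 516, 548 and 568 CPM in 4LPS, again without overlap and at an adjusted p of 0.125. With a block for the replicate number and a correction for gene length, P4hb passed as higher (edgeR, adjusted p = 0.0403). Canx (calnexin), Pdia3, Pdia4 and Pdia6, the other members that form or shuffle disulfide bonds or bind sugar chains, had overlapping groups and log2 fold changes of 0.01 to 0.07, and in each of these the sign turned negative without a composition factor.

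The 8 members whose promoters carry ERSE were Hspa5, Hsp90b1, Dnajc3, Creld2, Calr, Canx, Pdia6 and Syvn1, and their log2 fold changes ran from -0.07 to 0.17. None passed by edgeR, against 16.4% of all genes tested, and DESeq2 called Calr alone. An unadjusted p under 0.05 was reached by 1 of the 8 (Calr), against 33.7% of all genes. Over the whole table edgeR called 2 of the 18 genes with an ERSE promoter that were tested, again against 16.4% of all. These were Adcy3 and Pan2, both higher and named after their values were seen.

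**Figure D2:**
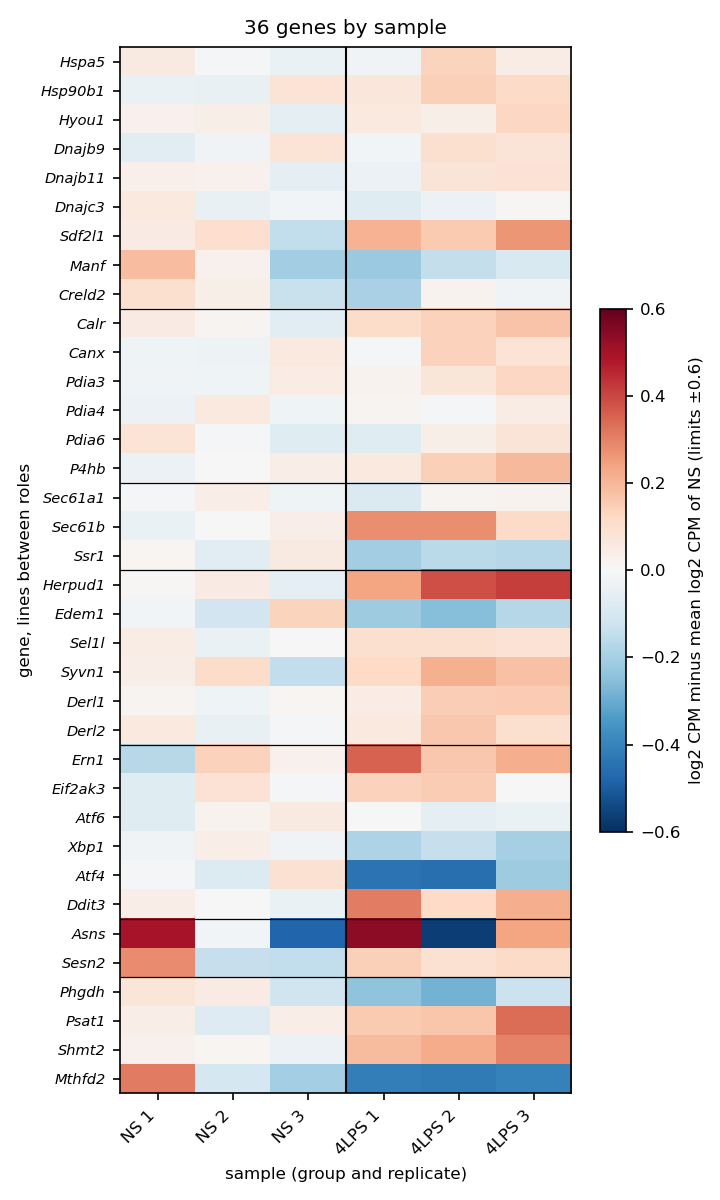
Each row is one of the 36 members tested and each column a sample, with colour giving log2 CPM minus the mean log2 CPM of the 3 NS samples (red higher, blue lower, limits ±0.6), and lines separating the roles. Herpud1 is red and Atf4 and Mthfd2 are blue in all 3 samples of 4LPS, the chaperone rows are pale throughout, and Asns varies within both groups (0.868 to 1.70 and 0.816 to 1.75 CPM).

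Translocation into the ER was represented by the channel subunits Sec61a1 and Sec61b and by Ssr1, the alpha subunit of the translocon-associated protein complex, which helps some signal sequences enter the channel. Ssr1 had 242, 229.5 and 249 CPM in NS and 208, 214 and 213 CPM in 4LPS. All 4LPS samples were lower, and the gene fell 1.13-fold (log2 fold change -0.18 ± 0.05, edgeR, adjusted p = 0.0327). The fall was reduced to -0.04 with a correction for gene length (adjusted p = 0.599), and of the 6 fits that leave out a sample only the one without NS replicate 2 passed (0.0325). Ssr1 lies at chr13:38149556-38178224 on the minus strand (8 exons) and shares exon bases with Gm60095 on the opposite strand, and whether the counting used strand is not stated in the labels or the methods. Sec61b, the small beta subunit, had 17.8, 18.4 and 18.8 CPM in NS and 22.3, 22.2 and 19.9 CPM in 4LPS, without overlap but with an adjusted p of 0.111 by edgeR. Sec61a1, the pore itself, overlapped (202 to 212 against 194 to 209 CPM).

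The 6 ERAD genes separated the groups in every case, 5 with 4LPS above and 1 with 4LPS below (37.4% of all genes tested were without overlap, 19.9% with 4LPS above), but only Herpud1 passed by edgeR. Herpud1 encodes a membrane protein that organises the HRD1 ubiquitin ligase complex and is one of the most responsive genes of the unfolded protein response. It had 159, 165 and 153 CPM in NS and 187, 208 and 212 CPM in 4LPS. Even the lowest 4LPS sample exceeded all NS samples, and the gene rose 1.27-fold (log2 fold change 0.35 ± 0.06, edgeR, adjusted p = 0.00731). It was the only member to pass in all 19 alternative fits, with adjusted p-values of 1.81e-05 to 0.034. Per length, Herpud1 went from 98.2 ± 3.64 to 117 ± 6.81 FPKM (SD, n = 3). The gene lies at chr8:95113022-95123141 on the plus strand with 8 exons and shares exon bases with the noncoding gene Gm15890 on the other strand.

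The partners of Herpud1 in the same ligase complex did not pass in the edgeR test described above, and whether their changes differ from that of Herpud1 was not tested. Syvn1, which is HRD1 itself, had 80.1, 84.2 and 70.3 CPM in NS and 84.7, 90.3 and 88.1 CPM in 4LPS, and its adaptor Sel1l had 228, 215 and 222 CPM in NS and 237, 237 and 235 CPM in 4LPS. Both were apart with 4LPS above, by 1.12-fold and 1.07-fold, at adjusted p-values of 0.158 and 0.159 by edgeR. The sign of Sel1l turned to -0.01 without a composition factor, and corrected for gene length, Sel1l passed as higher (log2 fold change 0.25, adjusted p = 0.0111). With that correction and a block for the replicate number, Syvn1 passed as higher (edgeR, adjusted p = 0.0327). Derl1 and Derl2, which belong to the channel for retrotranslocation, were 264 to 272 against 277 to 298 CPM and 65.1 to 70.0 against 70.0 to 75.2 CPM, the last pair almost touching. Corrected for gene length, Derl1 passed as higher (log2 fold change 0.195, edgeR, adjusted p = 0.0453). Edem1 takes mannose off misfolded glycoproteins and marks them for disposal. It went the other way, with 555, 519 and 616 CPM in NS and 484, 471 and 499.5 CPM in 4LPS, a log2 fold change of -0.22 ± 0.07 that did not pass by edgeR (adjusted p = 0.0692) and did by DESeq2 (0.00658). Corrected for gene length, its value was -0.07 (0.435).

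**Figure D3:**
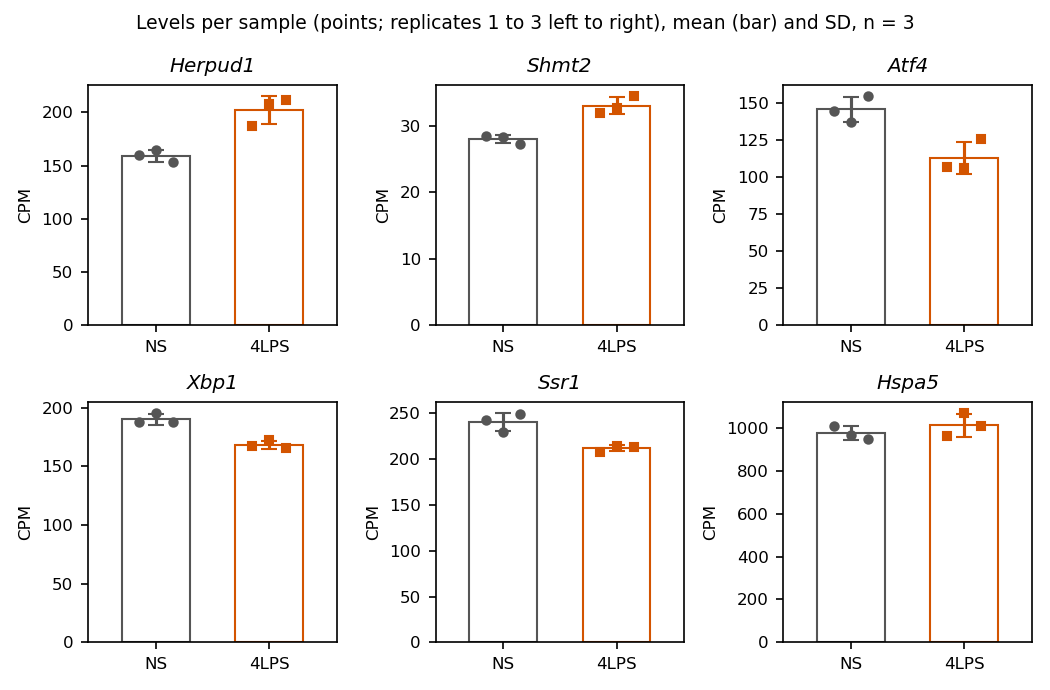
CPM per sample (points, replicates 1 to 3 from left to right) is shown with the mean (bar) and SD (n = 3) for the 5 members that passed and for Hspa5. For the 5 that passed no NS sample reaches into the range of 4LPS, whereas the 2 groups of Hspa5 overlap (948 to 1010.0 against 959.7 to 1067 CPM).

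Among the sensors and transcription factors, Atf4 and Xbp1 fell and the other 4 did not pass. Atf4, the effector of the integrated stress response, had 145, 137 and 155 CPM in NS and 107, 106 and 126 CPM in 4LPS. The highest 4LPS sample stayed under the lowest NS sample, and Atf4 fell 1.29-fold (log2 fold change -0.37 ± 0.08, edgeR, adjusted p = 0.0182). It passed in 16 of 19 alternatives and missed the threshold when NS replicate 1 (0.0584), or replicate 1 (0.0609) or 2 (0.0665) of 4LPS, was left out. Atf4 lies at chr15:80139372-80141745 (plus strand, 3 exons) and shares no exon bases with another gene. Since ATF4 protein is set mainly by translation, its mRNA level is no measure of the protein.

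Xbp1, the mRNA that IRE1 splices, had 187, 195 and 187 CPM in NS and 167, 172 and 166 CPM in 4LPS. The groups did not overlap, and Xbp1 fell 1.13-fold (log2 fold change -0.17 ± 0.04, edgeR, adjusted p = 0.0304). Of the fits that leave out a sample only the one without NS replicate 3 passed (0.0319), and the other 5 gave adjusted p-values of 0.0681 to 0.119. Without a composition factor the log2 fold change was -0.27. Gene counts do not tell spliced from unspliced Xbp1, so the activity of IRE1 was not measured. Xbp1 lies at chr11:5470606-5483027 (plus strand, 4 exons) and shares exon bases with Ccdc117 on the opposite strand.

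Of the sensors, Ern1 (IRE1) had 35.4, 43.8 and 40.5 CPM in NS and 50.9, 44.5 and 46.2 CPM in 4LPS, Eif2ak3 (PERK) had 69.5, 77.8 and 72.5 against 80.5, 81.4 and 73.2 CPM, and Atf6 had 136, 145 and 148 against 143, 138 and 139 CPM. Only Ern1 was without overlap, at a log2 fold change of 0.24 ± 0.09 (edgeR, adjusted p = 0.111). Corrected for gene length, Ern1 passed as higher (0.329, edgeR, adjusted p = 0.0433). Ddit3 encodes CHOP, the factor induced when ER stress persists and linked to cell death. It had 12.3, 11.9 and 11.6 CPM in NS and 14.8, 13 and 13.9 CPM in 4LPS, 1.16-fold higher and without overlap, and did not pass (edgeR, adjusted p = 0.156). Ddit3 shares exon bases with Mars1 on the opposite strand, so reads in the overlap cannot be assigned without strand.

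Among the targets of ATF4, Trib3, Chac1 and Asns were barely expressed in either group. Trib3, a pseudokinase, had 3 to 9 counts per sample, and Chac1, which degrades glutathione, 0 to 8, so neither was tested. Asns, the asparagine synthetase, had 12 to 27 counts per sample, and its log2 fold change of 0.09 carried an SE of 0.39. Sesn2, a sensor of leucine and brake on mTORC1, had 15.2, 11.4 and 11.3 CPM in NS and 13.8, 13.3 and 13.6 CPM in 4LPS, all 4LPS samples lying within the range of NS. For Trib3, Chac1 and Asns a difference of the size seen in the other members was not detectable at this depth.

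The 4 enzymes of serine and one-carbon metabolism, many of them ATF4 targets, did not overlap between groups (37.4% of all genes tested did not), and they lay in both directions. Shmt2, the mitochondrial hydroxymethyltransferase that passes a carbon from serine to folate, had 28.5, 28.3 and 27.3 CPM in NS and 32.0, 32.7 and 34.5 CPM in 4LPS. It rose 1.18-fold (log2 fold change 0.24 ± 0.07, edgeR, adjusted p = 0.0489) but passed in only 3 of 19 alternatives and in none of the 6 that leave out a sample (0.0819 to 0.144), so this call rests on the setting. Shmt2 lies at chr10:127352266-127358323 (minus strand, 12 exons) and shares exon bases with Ndufa4l2 on the opposite strand. Psat1, the transaminase of serine synthesis, was higher in the same way (35.3, 32.5 and 35.3 against 38.2, 38.5 and 43.3 CPM) without passing (edgeR, adjusted p = 0.084).

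Phgdh opens the serine pathway in the cytosol and is strongly expressed in astrocytes. Its level was 126, 123 and 109.8 CPM in NS and 101, 98.0 and 109 CPM in 4LPS. The groups were apart by less than 1 CPM, and the log2 fold change of -0.22 ± 0.07 did not pass by edgeR (adjusted p = 0.0648) but did in 7 of 19 alternatives, DESeq2 among them (0.0447). The astrocyte markers given above, lower in 4LPS, moved with it, and their part was not tested. Mthfd2, the mitochondrial folate dehydrogenase, had 22.8, 17.1 and 16.0 CPM in NS and 13.8, 13.7 and 13.9 CPM in 4LPS, with a log2 fold change of -0.43 ± 0.14 (edgeR, adjusted p = 0.074). The 4LPS samples lay close together and the NS samples did not, and without NS replicate 3, the lowest of its group, Mthfd2 passed as lower (log2 fold change -0.53, 0.030). Without NS replicate 1, the highest, the value was -0.26 (0.181).

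On a scale that allows genes to be compared, the highest levels belonged to folding genes. In NS, Calr had 782 ± 36.6 FPKM, Hsp90b1 581 ± 26.9, Hspa5 444 ± 19.7 and Pdia3 432 ± 10.6 (SD, n = 3). Hspa5 and Pdia3 overlapped between samples, while Calr and Hsp90b1 stood apart from each other and from the rest. The sensors were far lower, at 20.6 FPKM for Atf6, 17.9 for Eif2ak3 and 11.2 for Ern1. The transcription factors Atf4 and Xbp1 had 107 and 100 FPKM, above chaperones such as Pdia4 (93.9), Hyou1 (51.7) and Creld2 (36.2), while Ddit3 had 21.0. Sesn2 had 5.51 FPKM, Asns 0.773, Trib3 0.270 and Chac1 0.137. The first 4 genes kept the same order in 4LPS, with 807, 586, 431 and 426 FPKM. FPKM is not scaled for composition, which is why Hspa5 and Pdia3 are slightly lower in 4LPS on that scale and slightly higher in CPM. The sum over the 38 genes was 9880 to 10046 CPM in NS and 10021 to 10548 CPM in 4LPS, and their share of all counts was 1.02% to 1.05% and 0.977% to 1.02%.

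**Figure D4:**
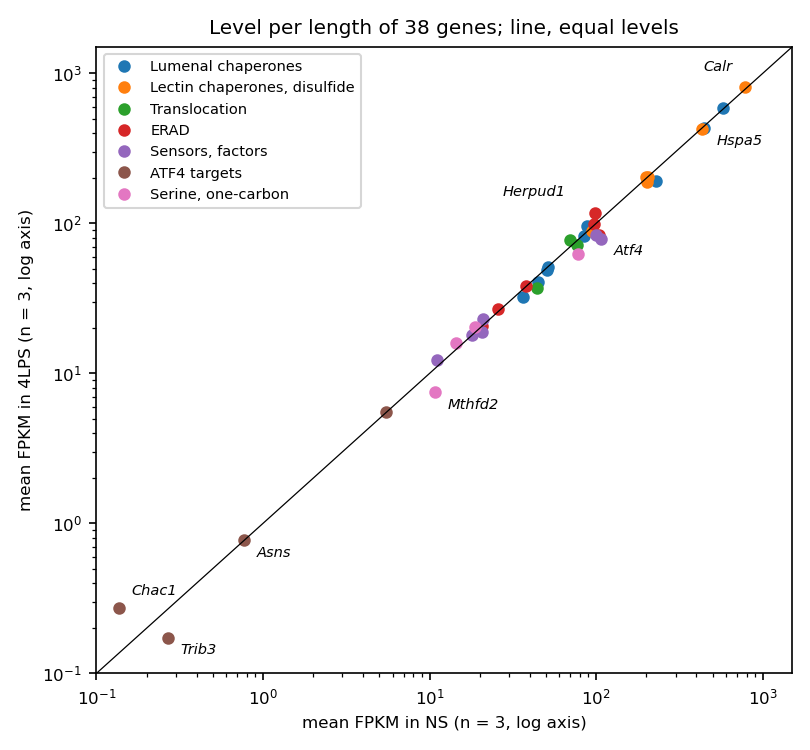
Mean FPKM in 4LPS is plotted against mean FPKM in NS (n = 3 each, both axes logarithmic) for the 38 members, coloured by role, with the line marking equal levels. The points run along the line up to Calr at 782 FPKM, with Chac1 (0.137 in NS, 0.273 in 4LPS) and Trib3 (0.270 and 0.173) off it at under 1 FPKM. Among genes over 1 FPKM, Herpud1 lies furthest above the line (98.2 in NS, 117 in 4LPS). Others above it, such as Sec61b (69.8 and 77.6) and Shmt2 (14.3 and 15.8), lie closer. Below it lie Atf4 (107 and 79.2) and Mthfd2 (10.8 and 7.48), and also Edem1 (104 and 84.1), Phgdh (77.8 and 62.6), Xbp1 (100 and 83.1), Ssr1 (44.4 and 36.9) and Manf (229 and 193).

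Further genes of the same pathways, listed by function, are to be read against the 16.4% of all genes called. Of 30 further ER folding genes tested, 2 rose and 1 fell. These were Erp29, a disulfide isomerase-like chaperone (224 ± 6.61 against 276 ± 6.42 CPM, log2 fold change 0.30, edgeR, adjusted p = 0.00349), Uggt1, the glucosyltransferase that tests whether glycoproteins are folded (0.22, 0.013, and 0.12 without a composition factor), and Fkbp9, a prolyl isomerase (-0.48, 0.0148). Uggt1 passed in 15 of 19 alternatives. Fkbp9 passed in 16 of 19, and in 3 of the 6 that leave out a sample. None of 30 genes of translocation and N-glycosylation passed by edgeR or limma-voom, 6 had an unadjusted p under 0.05, and DESeq2 called Stt3a (0.15, 0.0297), named after its value was seen. Of 28 further ERAD genes 2 rose: Ube2j1, the ubiquitin-conjugating enzyme of the ER membrane (181, 166 and 162 CPM in NS, 216, 235 and 237 CPM in 4LPS, log2 fold change 0.44, adjusted p = 0.00281), and Os9, the lectin that delivers glycoproteins to SEL1L (304, 326 and 296 CPM in NS, 393, 381 and 409.6 CPM in 4LPS, 0.35, 0.00421). Both passed in all 19 alternatives, as Herpud1 did. Among the genes of the other lists, so did Erp29, Traf2, Hspe1, Cebpb, Slc1a4, Slc7a1, Vars and Mars1.

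Among 21 further sensors and controls of the response Traf2, the adaptor that binds IRE1 and TNF receptors, was the only call by edgeR (36.8, 40.1 and 36.9 CPM in NS, 48.3, 53.9 and 54.7 CPM in 4LPS, log2 fold change 0.46, edgeR, adjusted p = 0.00489). The other kinases of eIF2α, Eif2ak1, Eif2ak2 and Eif2ak4, the phosphatase subunits Ppp1r15a and Ppp1r15b and all eIF2B subunits did not pass by edgeR. DESeq2 also called Eif2ak2 (PKR, the kinase that senses viral double-stranded RNA), named after its value was seen (52.4, 51.1 and 55.1 CPM in NS, 72.7, 68.0 and 56.8 CPM in 4LPS, log2 fold change 0.32, adjusted p = 0.0181 by DESeq2 and 0.0535 by edgeR). Of 33 genes of ER to Golgi transport only Ergic3 passed by edgeR (0.21, 0.0406). It passed in 5 of 19 alternatives, 1 of them among the 6 that leave out a sample, and was 0.11 without a composition factor. Of 13 mitochondrial chaperones and proteases 2 rose, Hspe1, the co-chaperonin of HSP60 (0.48, 0.00494), and Afg3l2, a protease of the inner membrane (0.25, 0.0177, and 0.15 without a composition factor). Afg3l2 passed in 12 of 19 alternatives and in 3 of the 6 that leave out a sample.

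The wider ATF4 program split in both directions, with 3 of 27 genes higher and 3 lower. The 3 that fell were amino acid transporters. Slc1a4, which carries serine, alanine and other neutral amino acids, had 22.2, 17.4 and 17.7 CPM in NS and 8.30, 8.43 and 9.97 CPM in 4LPS and fell by 1.10 on the log2 scale (SE 0.14, edgeR, adjusted p = 0.00165). Slc7a1, the transporter of cationic amino acids, fell by 0.58 (0.0119), and Slc7a5, the large neutral amino acid transporter LAT1, fell by 0.49 (0.0246). The 3 that rose were Cebpb, a transcription factor that pairs with ATF4 and also drives inflammatory genes (0.61, 0.0122), Slc1a5, the glutamine carrier (0.68, 0.0259), and Klhl24 (0.31, 0.00908). Slc1a5 passed in 14 of 19 alternatives and in 2 of the 6 that leave out a sample. Klhl24 passed in 16 of 19 but in none of the fits on log2 FPKM, and Slc7a5 passed in 17 of 19. Astrocytes express Slc1a4 and brain endothelium expresses Slc7a1 and Slc7a5. Of the markers given above, 8 of 13 astrocyte genes and 5 of 13 endothelial genes were lower in 4LPS, and the endothelial sums overlapped between the groups. The part of these cells in the falls of the transporters was not tested. Atf3, another stress factor and named after its values were seen, had 111, 137 and 256 CPM in NS and 198, 228 and 320.2 CPM in 4LPS, so that its groups overlapped (adjusted p = 0.229).

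Aminoacyl-tRNA synthetases, of which ATF4 induces many, also split, with 2 of 20 higher and 3 lower. Vars rose most (99.3, 103 and 97.8 CPM in NS, 150.1, 155 and 171 CPM in 4LPS, log2 fold change 0.66 ± 0.06, edgeR, adjusted p = 3.45e-04), followed by Qars (0.30, 0.0135). Mars1 (-0.31, 0.0111), Yars (-0.27, 0.0185) and Cars (-0.23, 0.0467) fell. Of the 6 fits that leave out a sample, Yars passed in 2 and Cars in none. Over these 8 lists the median log2 fold change lay between -0.07 for the ATF4 program and 0.05 for ERAD and the synthetases, and without a composition factor these medians were all below 0, as was that of all genes (-0.11).

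**Figure D5:**
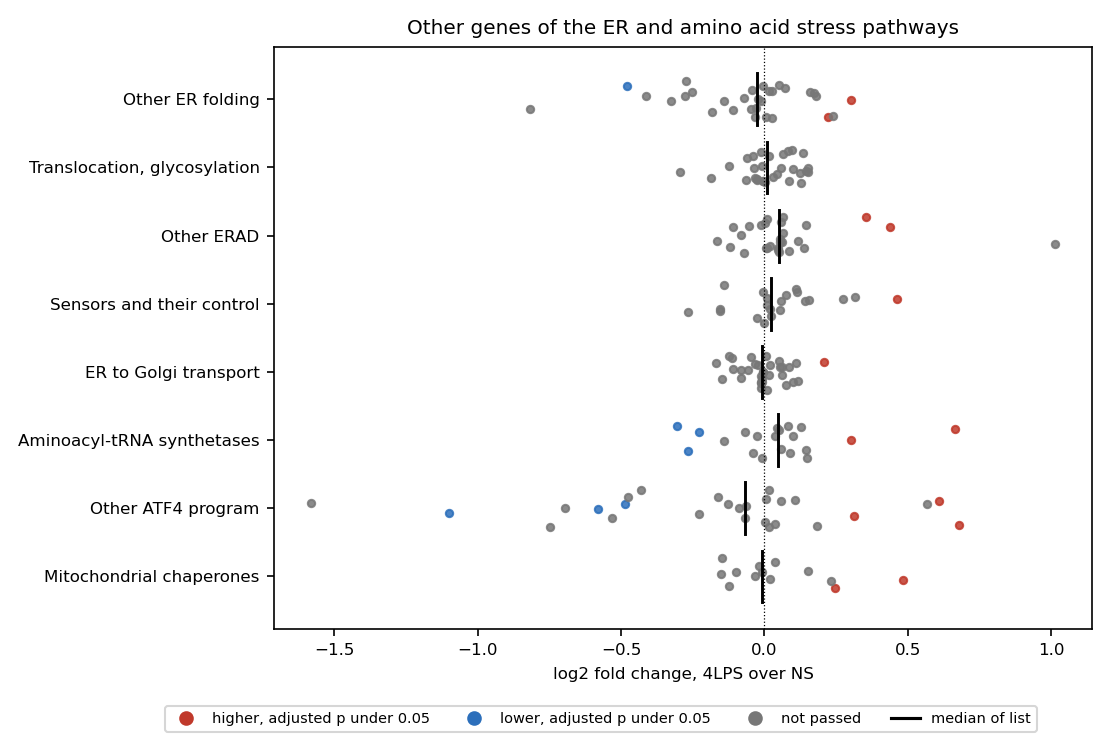
Each point is the log2 fold change of 4LPS over NS for a gene tested in one of 8 further pathway lists (height within a row only spreads the points), with red for higher, blue for lower and grey for not passed, and a black bar at the median of the list. Medians lie near 0, from -0.07 to 0.05, and the calls of the ATF4 program and of the synthetases lie on both sides.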

How the data were processed

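CD11b+ cells of 3 NS and 3 4LPS samples, each from 2 pooled mice, were profiled by RNA-seq, and the labels give each sample its group and number. HISAT2 2.0.4, Bowtie2 2.2.5, RSEM 1.2.8 and DESeq2 1.16.1, and the builds mm39 and mm10, are named in the submitters' processing notes. The annotation and the use of strand are not stated there or in the methods. Per the file headers and methods, the authors deposited RSEM's expected counts, that is, estimated counts without normalization (2.77% were not whole). They also deposited FPKM and TPM values, scaled for length and library total, and a normalized signal divided by a size factor per sample. TPM, the deposited signal and the authors' group means entered no result. A read that matches several genes is divided between them by RSEM.

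The expected counts were rounded and tested with edgeR 4.0.16 in R 4.3.3 (TMM factors, filterByExpr, quasi-likelihood F-test, Benjamini-Hochberg adjustment over 13151 genes, threshold 0.05). Log2 fold changes are 4LPS over NS, the SE is their size divided by the square root of F, and the 95% interval uses the t distribution with the degrees of freedom of the fit. The script was tested on simulated counts. With 3 samples per group an exact permutation test of a single gene cannot reach 0.05, so every p-value is taken from a fit to the whole table. The alternatives changed the factors (RLE, upper-quartile, none), the filter (none, or 50 counts in at least 3 samples), the tool (DESeq2 1.42.0, limma-voom, and limma 3.58.1 on log2 FPKM with pseudocounts of 1 and 0.1, with or without a minimum of 1 FPKM), the model (a block for the replicate number, a loess fit on gene length, or the pair of them) and the samples, each left out in turn. Gene coordinates are from GENCODE on GRCm39, and promoters from RefSeq on GRCm38.p6, matched by symbol.

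The members and lists were chosen with earlier results of these data known, and no list was tested as a set. All 38 members are named, and of each other list up to 4 genes per direction with the smallest adjusted p among those that passed. Stt3a, Eif2ak2, Adcy3, Pan2 and Atf3 fall outside this rule. So do Eif2ak1, Eif2ak4, Ppp1r15a and Ppp1r15b, named as not passed, and Cd79a, Ms4a1, Jchain and Mzb1, named as defining markers.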

Additional observations from a re-analysis of the deposited data

How the results depend on the processing

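Only Herpud1 passed in all 19 alternatives. Shmt2 passed in 3, Atf4 in 16, Xbp1 in 12 and Ssr1 in 11, each keeping its sign throughout. Against 2 members higher and 3 lower, 1 member was higher with RLE factors, without a filter and without each sample; 1 higher and 5 lower passed with upper-quartile factors and on log2(FPKM + 1) without a filter; 1 and 6 without a composition factor and in both filtered FPKM fits; 2 and 5 by DESeq2; and 5 and 1 with the length correction. Leaving out 1 sample gave 0 to 5 lower members (0 without NS replicate 1 and 0 without replicate 1 or 2 of 4LPS), with 9 to 16 members at an unadjusted p under 0.05, and 781 to 1629 higher and 363 to 1215 lower genes in all. Over all genes, 1711 were lower without a composition factor, 823 higher and 1486 lower on log2(FPKM + 1), 813 and 1454 with a pseudocount of 0.1, 818 and 1335 without a filter, 2131 higher with the length correction and 2385 higher with the length correction and the block. No scaling moved the median of all genes by more than 0.10. The cause of these differences was not tested.

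Samples of the same number were not treated as pairs. Their deviations from the group means correlated at 0.473, -0.262 and 0.0663, and those of samples of different number at -0.542 to 0.468. With a replicate block 1 member was higher (Herpud1) and 1 lower (Atf4), and with the block and length correction 6 and 2.

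Members that changed sign, none of which passed by edgeR with TMM factors, were as follows (log2 fold change). Without a composition factor Asns was -0.0124, Canx -0.0261, Dnajb11 -0.054, Dnajb9 -0.0451, Hspa5 -0.045, Hyou1 -0.0262, Pdia3 -0.0244, Pdia4 -0.0818, Pdia6 -0.0854 and Sel1l -0.00528. On log2(FPKM + 1), with and without the filter, Canx was -0.0249, Dnajb11 -0.05, Dnajb9 -0.0395, Hspa5 -0.043, Hyou1 -0.0232, Pdia3 -0.0214, Pdia4 -0.0769, Pdia6 -0.0801 and Sel1l -0.00267, and without the filter Asns was -0.00428. With a pseudocount of 0.1 Canx was -0.025, Dnajb11 -0.0505, Dnajb9 -0.0402, Hspa5 -0.0431, Hyou1 -0.0236, Pdia3 -0.0215, Pdia4 -0.0777, Pdia6 -0.0804 and Sel1l -0.00272. With upper-quartile factors Pdia4 was -0.0134 and Pdia6 -0.0165. With the length correction Atf6 was 0.151, Dnajc3 0.0862, Sec61a1 0.0539 and Sec61b -0.0253, and with the block as well 0.153, 0.0856, 0.0529 and -0.0277. Leaving out 1 sample gave Asns -0.155 to 0.367, Creld2 -0.127 to 0.00362, Pdia4 -0.00105 to 0.0474, Pdia6 -0.0187 to 0.0614 and Sec61a1 -0.0277 to 0.0236.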
